A study of Mus musculus with 23 samples.

Results

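The genes described are the integrin alpha and beta chains, the laminin chains and the collagen chains of mouse embryonic stem (ES) cells that lose and regain Argonaute proteins. Members were taken by symbol (Itga, Itgav, Itgb, Lama, Lamb, Lamc and Col followed by chain numbers), which gave 73 of the 18412 genes in the tables: 13 integrin alpha, 8 integrin beta, 10 laminin and 42 collagen chains. The rule itself used symbols and no measured value, but the members were chosen with earlier results of these data known. A member was described in a series of samples where its mean over the exon columns was at least 10 normalised reads. This left 46 members in the genetic series, 54 over the time course and 44 with rescue. Of the 73 members, 43 passed in all 3 series, 54 in at least 1 and 19 in none. Among the 19 below 10 in every series were Col1a2 and Col3a1, which encode chains of fibrillar collagens I and III, and the integrin chains Itgb6 and Itgb8.

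The study set out to follow the early response of ES cells to Argonaute loss by strand-specific sequencing of polyadenylated RNA, with 23 samples in 11 groups. In the genetic series these were AB2.2 wild type (n = 2), B9 (Blm-/-;Ago1,3,4-/-, n = 2), E7 (Blm-/-;Ago1,2,3,4-/-;CreERT2;hAgo2fl, an added Ago2 transgene, n = 3) and the Argonaute-free clones C62 and C86 (Blm-/-;Ago1,2,3,4-/-;CreERT2, n = 2, each a separate clone). Both other series used Blm-/-;Ago1,2,3,4-/-;CreERT2 cells carrying TT-FHAgo2, an Ago2 transgene switched on by doxycycline. The labels' protocols call these cells clonal lines without naming the clones, so a clone's own traits cannot be told apart from those of its genotype. Time course cells received 2.5 µg/mL doxycycline for 48 h, which by the labels' protocols brings Ago2 to its wild-type level, and were collected 0, 24, 48 or 96 h after its removal (n = 2 each). Rescue cells, propagated at 0.1 µg/mL, were collected after 96 h without the drug (n = 2) or after a further 48 h at 0.1 or 2.5 µg/mL (n = 2 each). The labels give all mutant lines, each doxycycline control included, as mutant for Blm, Ago1, Ago3 and Ago4. Later time points and drug-returned groups had also been longer in culture than their controls, by 24 to 96 h and by 48 h, which cannot be told apart from the treatment. All cells grew on gelatin in serum with LIF, without feeder cells named in the labels.

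Integrins are receptors that pair an alpha with a beta chain at the cell surface and tie the extracellular matrix to the actin cytoskeleton. Itgb1 pairs with most alpha chains, Itgb3 and Itgb5 pair with Itgav to bind RGD-containing ligands such as vitronectin, and Itgb4 pairs with Itga6 in hemidesmosomes. Laminins are trimers of an alpha, a beta and a gamma chain that organise basement membranes. Laminin-111 (Lama1, Lamb1, Lamc1) and laminin-511 (Lama5, Lamb1, Lamc1) are the forms best known from the early embryo and from ES cells, with Itga6 and Itgb1 as a receptor. Collagen IV, made mostly of Col4a1 and Col4a2 chains, is the sheet-forming collagen of basement membranes, whereas collagens I, II, III, V and XI form fibrils. Argonautes carry microRNAs to target messages and reduce their translation and stability. A target is recognised mainly by its match to the microRNA's seed, bases 2 to 8 from the 5′ end.

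Exon depth ranged from 13.5 to 53.7 M reads (M, mega) over genetic series libraries, from 32.9 to 62.4 M over the time course and from 24.7 to 53.8 M with rescue, and intron depth from 1.47 to 8.38 M. Library values were recovered from the deposited group means, so libraries are numbered by depth within a group and cannot be tied to a replicate or a clone. Ago1 had 3514 to 4693 normalised reads in wild type and 0 reads in every library of all other groups. Reads over the whole Ago2, Ago3 and Blm genes did not follow the labels. Ago2 had 11759 to 12167 at 0 h and 10771 to 10817 after 96 h. In the rescue it had 7260 to 7300 without doxycycline, 7672 to 7776 with 0.1 µg/mL and 5284 to 6093 with 2.5 µg/mL. Its total was thus lowest at the higher dose. Ago3 had 366 to 607 in wild type and 1326 to 1568 in B9, and its mean was higher in B9, E7 and the clones than in wild type. In the time course, whose values were scaled separately, Ago3 had 4406 to 4661 and Blm 5927 to 6062 at 0 h. Blm had 4132 to 5483 in wild type, 3159 to 3702 in B9, 2383 to 3058 in E7 and 1095 to 2042 in the clones. Ago4 had at most 48.1 in wild type. Gene totals do not show which exons or which transgene they come from, so only the loss of Ago1 was checked by them. All 8 ES cell markers were expressed in every time course and rescue group, with summed levels of 460224 to 514880 normalised reads over the time course groups and 341635 to 370895 over those of the rescue. Nothing in the labels says that libraries of a group came from separate cultures, so p-values measure the spread between these libraries only, which may be technical. In bulk RNA, fewer cells of a type and less RNA per cell cannot be told apart.

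The microRNAs whose seeds are most relevant here are the ones known to dominate ES cells, the miR-290/302 and miR-17/92 families, and miR-29, a family known for matches in collagen messages. Their mature sequences from RefSeq (positions on GRCm38.p6) are printed with the seed in capitals.
miR-294-3p: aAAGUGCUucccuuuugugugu
miR-302d-3p: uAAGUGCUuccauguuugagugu
miR-17-5p: cAAAGUGCuuacagugcagguag
miR-92a-3p: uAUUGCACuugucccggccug
miR-25-3p: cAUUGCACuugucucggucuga
miR-29a-3p: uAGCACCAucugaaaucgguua
miR-294 and miR-302d share a seed, as do miR-92a and miR-25, whereas the miR-17 seed is the miR-294 seed shifted along by a base.

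The 3′ UTR of each gene (GENCODE vM21 on GRCm38, which is mm10; the transcript with the longest coding sequence, then the longest 3′ UTR) was searched on the transcript strand for the 7 letters complementary to each seed. These are AGCACTT for miR-294, GCACTTT for miR-17, GTGCAAT for miR-92 and TGGTGCT for miR-29, of which the first pair overlap by GCACTT. Of the 54 measured members of the time course, 52 had a 3′ UTR in the transcript searched, all but Col11a2 and Col18a1. A GTGCAAT match was found in 9 of the 52 (17.3%, against 6.58% of 13199 tested genes with a 3′ UTR): Col11a1, Col1a1, Col27a1, Col5a1, Itga5, Itga6, Itga8, Itgav and Itgb3. TGGTGCT was found in 20 (38.5%, against 13.7%). AGCACTT was found in 4 (7.69%, against 15.2%), which were Col17a1, Col23a1, Col4a2 and Itgb3, and GCACTTT in 5 (9.62%, against 13.1%), which were Col17a1, Col26a1, Col4a2, Itga4 and Lamc1. A match describes letters in a message and is not a shown binding site.

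Examples from chains that changed most, or whose exon and intron reads parted, are shown as 23 bases of 3′ UTR on mm10, 5′ to 3′ on the transcript strand, with the match in capitals.
Itgav, miR-92 match nearer the stop codon (chr2:83804749-83804771, plus strand): tatagctctatttttGTGCAATt
Itgav, the other miR-92 match (chr2:83806400-83806422, plus strand): tgtcattgttcttaaGTGCAATa
Itgb3, miR-294 match (chr11:104669697-104669719, plus strand): gggtgcatctgatgtAGCACTTa
Itgb3, miR-92 match (chr11:104668583-104668605, plus strand): tctgggaggccacaaGTGCAATt
Itga5, miR-92 match (chr15:103344315-103344337, minus strand): taaactctgttgcaaGTGCAATa
Lamc1, miR-17 match (chr1:153220320-153220342, minus strand): ccccatctagttcctGCACTTTg
Itgb1, miR-29 match (chr8:128732860-128732882, plus strand): tttttctttaattccTGGTGCTc
Col4a2, overlapping miR-294 and miR-17 matches (chr8:11448968-11448990, plus strand): ggaggaggagatgatAGCACTTt
Itgav held the miR-92 letters at both places and none of the other 3 motifs. Itgb1 held the miR-29 letters alone. The miR-29 letters also stood once each in Itgb3, Itga5 and Lamc1 and at 2 places in Col4a2, which are not printed.

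With Ago2 switched on (0 h), the cells expressed a narrow set of chains. On a per-length scale (normalised exon reads per kilobase), Itgb1 took 82.6 to 83.6% of the beta chain signal and Itgb5 11 to 11.3%. Itga6, the alpha chain of laminin receptors, took 42.1 to 44.6% of the alpha chain signal, Itga5 and Itga3 between 18.0 and 19.6% each and Itgav 8.42 to 8.85%. Among laminins, Lamc1 (5936 reads per kilobase) was the most abundant, followed by Lama5 (1841), Lamb1 (1488) and Lama1 (1079). Col18a1, the core chain of basement membrane collagen XVIII, took 77.3 to 77.6% of the collagen signal, with Col4a1 at 5.35 to 5.64% and Col4a2 at 2.35 to 2.40%. The fibrillar chain Col1a1 stood at 7.03 reads per kilobase.

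After doxycycline removal Itgav, the integrin chains Itgb3, Itgb4 and Itgb5 and both common chains of collagen IV rose, while several alpha chains and minor collagens fell. At 96 h against 0 h, 20 of 54 measured members were called higher and 12 lower by limma (adjusted p below 0.05 over all 13652 genes tested). The called share, 59.3%, lay below the 65.0% of all genes, so the count of changes does not set these genes apart. Higher calls made up 37.0% of members against 32.4% of genes, and lower calls 22.2% against 32.5%. The median log2 change was 0.23 for members and -0.008 for all tested genes. By family, 5 of 6 measured beta chains rose and none fell, 2 of 11 alpha chains rose and 5 fell, 6 of 10 laminins rose and 2 fell, and 7 of 27 collagens rose and 5 fell. At 24 h 20 members were higher and 8 lower (51.9% called, against 50.7% of genes), and at 48 h 28 and 7 (64.8%, against 63.3%). These 3 comparisons share the 0 h libraries.

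**Figure D1:**
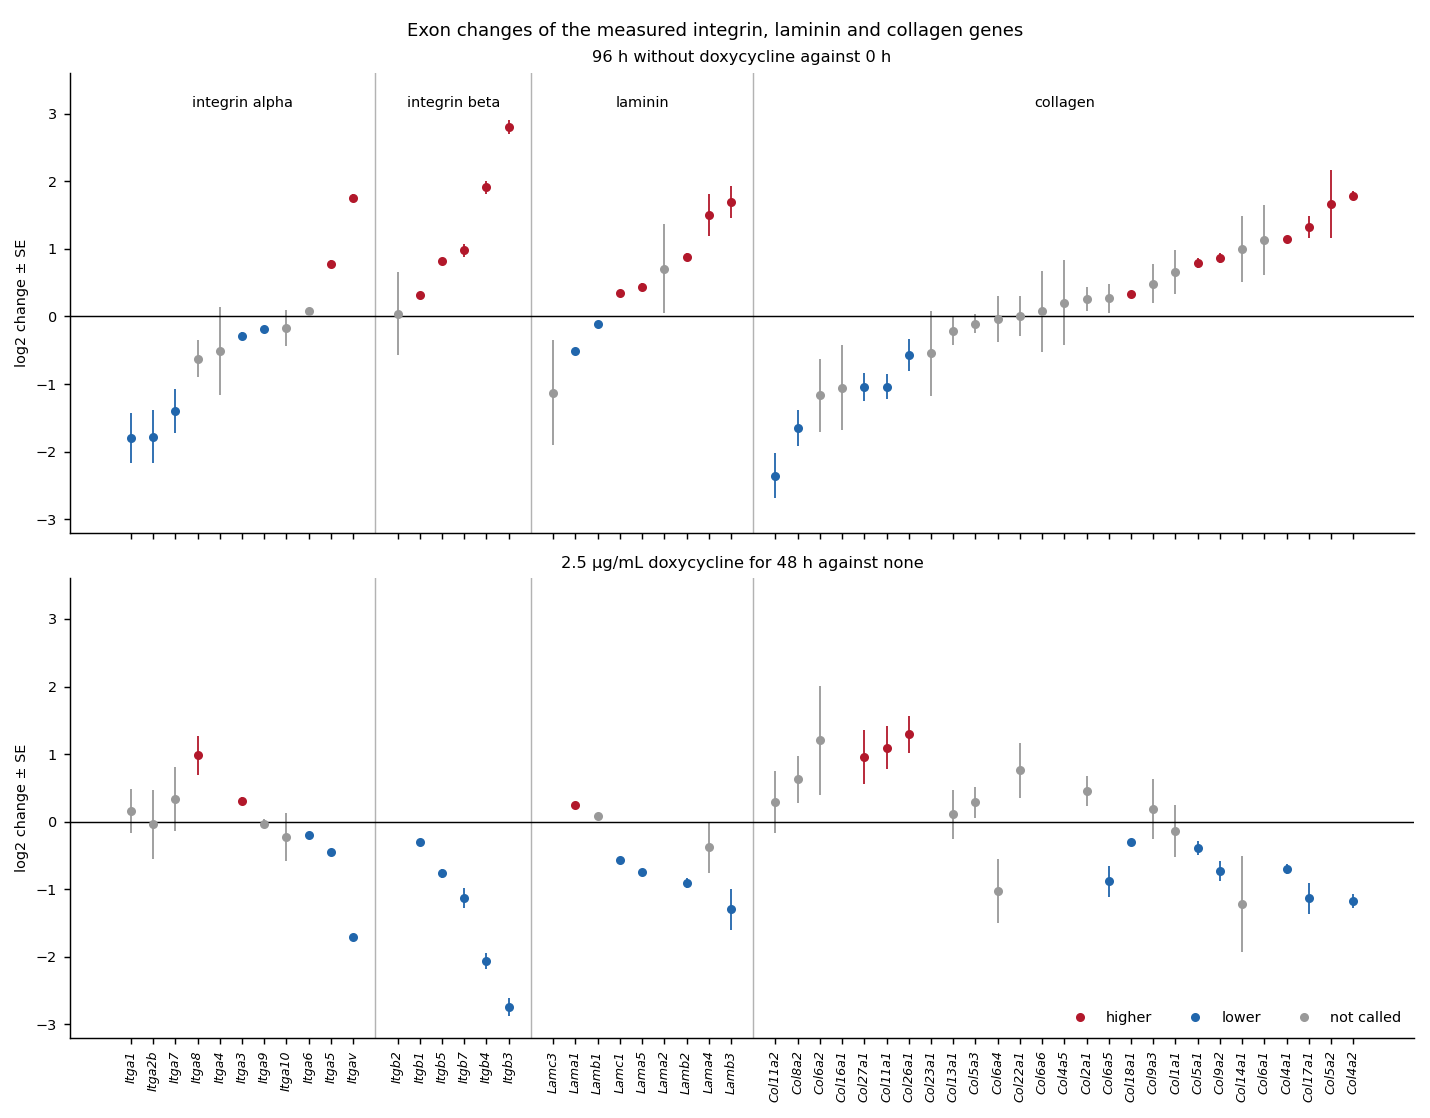
Log2 changes of exon reads (y axis, log2 of normalised reads plus 1, with standard errors) for the measured members reported here (x axis), grouped by family and ordered by the change at 96 h. The upper panel shows 96 h without doxycycline against 0 h, and the lower panel 2.5 µg/mL doxycycline for 48 h against none. Red is higher, blue lower and grey not called by limma at an adjusted p below 0.05; 5 of 6 beta chains are red above and 5 of 5 blue below.

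Itgb3, the partner of Itgav in the vitronectin receptor, showed the largest rise of all members. Its normalised exon reads were 171 and 209.7 at 0 h, 588 and 630.1 after 24 h, 1066 and 1114 after 48 h and 1251 and 1409 after 96 h. Both libraries of each time lay above those of the time before. At 96 h it was 6.98-fold higher than at 0 h on the log2(value + 1) scale (log2 change 2.80 ± 0.11, adjusted p = 2.17e-16).

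Itgav (ENSMUSG00000027087, chr2:83724397-83806916, plus strand), the alpha chain of several RGD receptors, had 2933 and 3025 normalised exon reads at 0 h, 5049 and 5368 after 24 h, 7873 and 8235 after 48 h and 9801 and 10355 after 96 h. No group overlapped the one before it. The change at 24 h was already 0.81 ± 0.0489 in log2 and reached 1.76 ± 0.0489 after 96 h (adjusted p = 9.36e-19). Its share of the alpha chain signal per kilobase moved from 8.42 to 8.85% at 0 h to 22.1 to 22.3% at 96 h. Itgav per kilobase was 0.198 to 0.20 times Itga6 at 0 h and 0.633 to 0.638 times at 96 h.

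Itgb4 (ENSMUSG00000020758, chr11:115974709-116008412, plus strand), the hemidesmosome chain, had 469 and 572 normalised exon reads at 0 h, 732 and 797 after 24 h, 1113 and 1234 after 48 h and 1937 and 1969 after 96 h. The groups rose in order without overlap (log2 change 1.91 ± 0.0926, adjusted p = 1.74e-14 after 96 h). Itgb5, the other common Itgav partner, went from 1827 and 1909.6 at 0 h to 3157 and 3170.3 after 48 h and 3242 and 3336 after 96 h (log2 change 0.82 ± 0.0552, adjusted p = 6.98e-12). Itgb7, a chain best known from lymphocytes that pairs with Itga4, went from 427 and 481 to 881 and 910.3 after 96 h (log2 change 0.98 ± 0.0954, adjusted p = 3.81e-09). Per kilobase its libraries at 48 h (336.3 to 349.3) and 96 h (329.4 to 340.4) overlapped. Itga4 itself had a time course mean of only 10.2 normalised reads and was not called at any time.

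Among marker lists of other cell types, the summed blood and mesoderm lists rose with these chains, whereas the trophoblast list, given below, fell. The 6 endothelium, platelet and blood markers, cell types in which Itgb3 is known, summed to 88.6 to 95.7 normalised reads at 0 h and 309 to 319 after 96 h, with the platelet gene Gp1ba at 0 reads in every group. The 6 mesoderm markers summed to 434 to 464 at 0 h and 880.0 to 937 after 96 h, with T, a defining marker of the primitive streak, at 0 reads at 96 h. By limma, 2 of the 3 measured endothelium, platelet and blood markers were called higher at 96 h and 1 lower. Of the 4 measured mesoderm markers 3 were called higher, where 32.4% of all genes were higher and 32.5% lower. The part of these lists in the rise of Itgb3, Itgav and Itgb4 was not tested.

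Itgb1 (ENSMUSG00000025809, chr8:128685654-128733200, plus strand), the most abundant beta chain, rose little. It had 17719 and 17789.7 normalised exon reads at 0 h, 18349 and 19127 after 24 h, 19477 and 20324 after 48 h and 21444 and 22713 after 96 h. The 96 h libraries lay above both 0 h libraries (log2 change 0.31 ± 0.0418, adjusted p = 5.94e-07), whereas at 24 h no change was called (log2 change 0.08 ± 0.0418, adjusted p = 0.128). Within a library, Itgb3 per kilobase was 0.00699 to 0.00856 times Itgb1 at 0 h and 0.0423 to 0.0450 times at 96 h, and the share of Itgb1 in the beta chain signal moved to 73.1 to 74.1%. Itgb2, the leukocyte beta chain, was not called at any time and had 5.80 and 10.9 normalised reads at 0 h and 7.05 and 9.71 after 96 h.

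**Figure D2:**
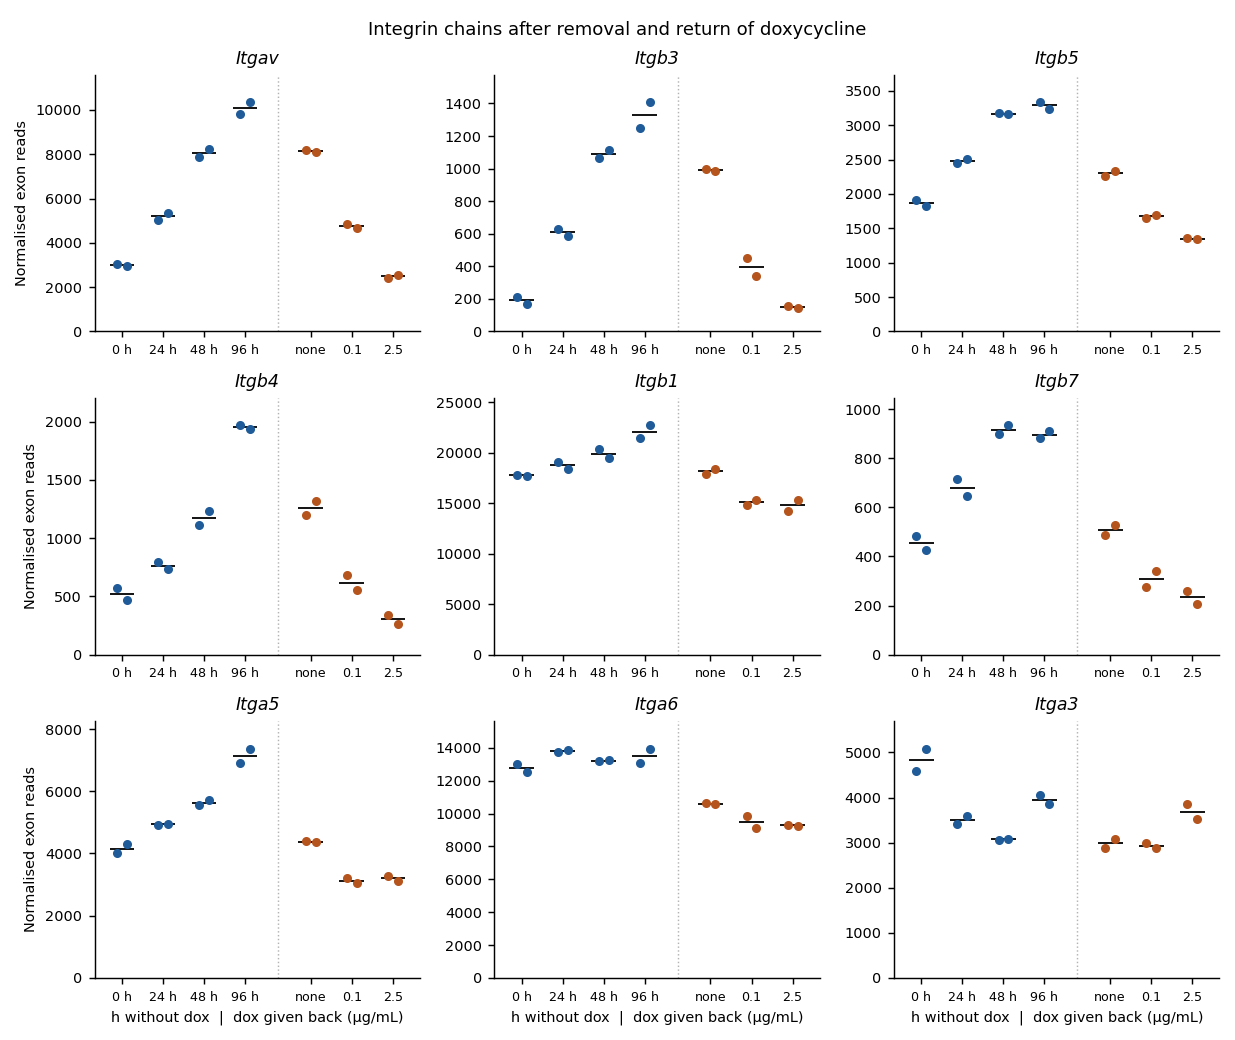
Normalised exon reads (y axis, linear, from 0) of 9 integrin chains in each library, with lines at group means. Blue points are the time course by hours without doxycycline and orange points the rescue by the dose given back; Itgav and Itgb3 climb at every time step and descend at every dose step.

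Among the other alpha chains, Itga5, the fibronectin receptor chain, rose at all 3 times, with 4026 and 4292 normalised exon reads at 0 h, 4923 and 4962 after 24 h, 5547 and 5722 after 48 h and 6903 and 7373 after 96 h (log2 change 0.78 ± 0.0496, adjusted p = 2.3e-12). Itga6 had 12515 and 13001 at 0 h and 13107 and 13963 after 96 h, and its change of 0.08 ± 0.0423 in log2 was not called (adjusted p = 0.0827). Itga3, a laminin-binding chain, was lower throughout, with 4590.5 and 5088 at 0 h, 3063 and 3086 after 48 h and 3849 and 4057 after 96 h (log2 change -0.29 ± 0.0558, adjusted p = 8.15e-05). Itga5 and Itgav were thus the 2 of 11 alpha chains that rose.

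The 4 other alpha chains called at 96 h were lower. Itga1, a collagen-binding chain, dropped within 24 h, from 103 and 133 normalised exon reads at 0 h to 19.1 and 26.2 after 24 h, and had 31.1 and 35.2 after 96 h (log2 change -1.80 ± 0.37, adjusted p = 0.000181). Itga2b, the platelet partner of Itgb3, had 57.0 and 66.7 at 0 h and 16.5 and 18.1 after 96 h (log2 change -1.78 ± 0.39, adjusted p = 0.000312), so it moved opposite to Itgb3, and its 96 h libraries lay below both 0 h ones. Itga7, known from muscle, fell from 54.1 and 85.3 at 0 h to 24.3 and 26.2 after 96 h, with no overlap from one time to the next (log2 change -1.40 ± 0.33, adjusted p = 0.000707). Itga9, a chain that binds tenascin and osteopontin, was lower by a small margin, with 2892 and 2921 at 0 h and 2540.5 and 2556 after 96 h (log2 change -0.19 ± 0.0542, adjusted p = 0.0038). Itga8 was lower at 24 and 48 h (log2 changes -1.01 and -1.28), and its value of -0.62 after 96 h was not called (adjusted p = 0.0522).

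Within the laminins, Lama5, Lamb2 and Lamc1 rose while Lama1 fell. Lama5 had 19610.4 and 22329.8 normalised exon reads at 0 h, 20436 and 21748 after 24 h, 26496 and 27074 after 48 h and 28124 and 28723 after 96 h (log2 change 0.44 ± 0.0489, adjusted p = 3.25e-08). Lama1 had 10196 and 10343 at 0 h, 7993 and 8562 after 24 h, 9496 and 9709.5 after 48 h and 6792 and 7609.8 after 96 h, with every 96 h library below every 0 h library (log2 change -0.51 ± 0.0504, adjusted p = 4.4e-09). Lama5 per kilobase was 1.61 to 1.80 times Lama1 at 0 h and 3.15 to 3.46 times at 96 h.

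Lamc1, the gamma chain common to both forms, had 44499 and 45989 normalised exon reads at 0 h, 42721 and 42968 after 24 h, 50300.2 and 51271 after 48 h and 56442 and 59127 after 96 h (log2 change 0.35 ± 0.0391, adjusted p = 3.39e-08). Lamb2, the beta chain of laminin-521, rose from 2643 and 2789 at 0 h to 4042 and 4108 after 48 h and 4809 and 5204 after 96 h (log2 change 0.88 ± 0.0551, adjusted p = 1.66e-12). Lamb1 had 8474 and 8719 at 0 h, 9792 and 10446 after 24 h, 10615 and 10827 after 48 h and 7893 and 8047 after 96 h. It was above its 0 h level at 24 and 48 h and below it at 96 h, where the change was small (log2 change -0.11 ± 0.0440, adjusted p = 0.034). That limma call was lost without 0 h library 1 or 96 h library 1. It was also lost without the filter on low values (adjusted p = 0.0727), without a trend in the prior (0.108) or with only both groups fitted (0.0578).

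Lamb3, the beta chain of an epithelial laminin, went from 50.3 and 56.1 normalised exon reads at 0 h to 87.0 and 99.3 after 48 h and 157 and 194 after 96 h (log2 change 1.70 ± 0.24, adjusted p = 1.29e-06). Lama4, an alpha chain of vessel basement membranes, rose from 24.1 and 25.1 at 0 h to 69.0 and 74.5 after 96 h (log2 change 1.51 ± 0.31, adjusted p = 0.000189). In both genes the 96 h libraries lay above all 0 h libraries. Lama2 and Lamc3, measured in the time course alone, were not called at any time.

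**Figure D3:**
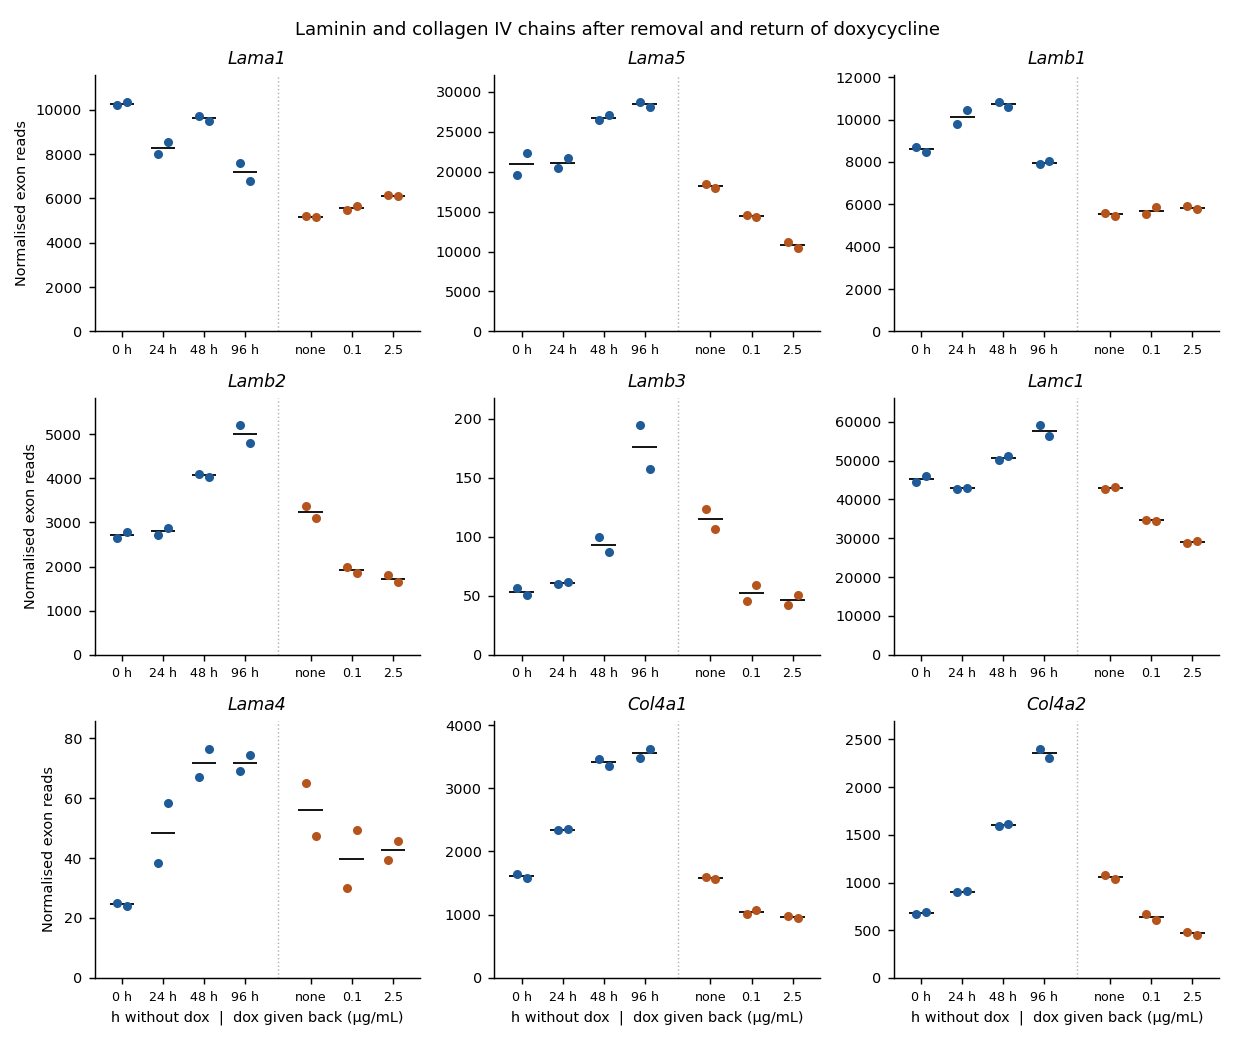
Normalised exon reads (y axis, linear, from 0) of 7 laminin chains and both common collagen IV chains in each library, with lines at group means. Blue points are the time course and orange points the rescue; Lama1 ends lower and Lama5 higher at 96 h, and Col4a2 climbs at every time step.

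Collagen IV rose in both of its common chains, which lie head to head on chromosome 8. Col4a1 (ENSMUSG00000031502, chr8:11198423-11312826, minus strand) had 1576 and 1649 normalised exon reads at 0 h, 2339.7 and 2351 after 24 h, 3356 and 3463 after 48 h and 3478 and 3628 after 96 h (log2 change 1.14 ± 0.0561, adjusted p = 2.39e-14). Col4a2 (ENSMUSG00000031503, chr8:11312805-11449287, plus strand) had 669.7 and 690.4 at 0 h, 896 and 916 after 24 h, 1594 and 1616 after 48 h and 2304 and 2405 after 96 h (log2 change 1.79 ± 0.0714, adjusted p = 4.96e-16). Neither gene's groups overlapped from step to step. Col4a2 per kilobase was 0.417 to 0.449 times Col4a1 at 0 h and 0.651 to 0.709 times at 96 h. Whether the authors' counting used strand is not given in the sources used here, so reads near the shared starts could be split between the genes.

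The starts of Col4a1 and Col4a2 lie 21 bases apart, and both rose, so the shared window is shown. The sequences run from 250 bases before to 50 after each start on the gene's own strand (RefSeq, GRCm38.p6), and capitals mark the 78 bases that the windows share, read from opposite strands.
Col4a1 (chr8:11312777-11313076, minus strand): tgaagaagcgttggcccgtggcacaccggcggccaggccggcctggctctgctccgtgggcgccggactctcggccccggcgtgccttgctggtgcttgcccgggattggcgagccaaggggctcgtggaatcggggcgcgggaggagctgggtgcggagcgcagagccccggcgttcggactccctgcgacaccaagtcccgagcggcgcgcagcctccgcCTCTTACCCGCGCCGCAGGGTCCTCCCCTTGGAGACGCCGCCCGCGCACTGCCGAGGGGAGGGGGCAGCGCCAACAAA
Col4a2 (chr8:11312555-11312854, plus strand): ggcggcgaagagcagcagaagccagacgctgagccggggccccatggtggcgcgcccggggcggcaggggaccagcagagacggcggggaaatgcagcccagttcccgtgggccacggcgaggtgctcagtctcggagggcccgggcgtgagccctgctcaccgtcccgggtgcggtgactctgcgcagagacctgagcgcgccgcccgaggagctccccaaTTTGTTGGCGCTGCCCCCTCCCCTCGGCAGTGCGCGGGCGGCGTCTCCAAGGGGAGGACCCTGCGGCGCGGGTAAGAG
G and C made up 74.0% of the Col4a1 window and 73.7% of the Col4a2 window, against a median of 52.7% over 32851 windows of the same length.

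Other collagens split by time. Col17a1, the transmembrane collagen of hemidesmosomes, rose at all 3 times, from 107 and 146 normalised exon reads at 0 h to 296 and 334 after 96 h (log2 change 1.32 ± 0.17, adjusted p = 2.58e-07). Col18a1 rose from 19790.2 and 20022 to 24378 and 25897 (log2 change 0.34 ± 0.0399, adjusted p = 1.02e-07), and its share of the collagen signal per kilobase moved to 69.6 to 72.0%. Col9a2, a chain of the fibril-associated collagen IX, was highest at 48 h, with 539 and 579.9 at 0 h, 1742 and 1742 after 48 h and 995 and 1049 after 96 h (log2 change 0.87 ± 0.0769, adjusted p = 7.87e-10). Col5a1 and Col5a2, chains of the fibrillar collagen V, were higher at all 3 times, with log2 changes at 96 h of 0.79 ± 0.0767 and 1.66 ± 0.50, although Col5a2 had only 20.1 and 23.3 reads at 96 h.

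Col11a1, a minor fibrillar chain known from cartilage, was higher early and lower late, with 133 and 162 normalised exon reads at 0 h, 224 and 269 after 24 h, 259 and 289.7 after 48 h and 68.0 and 74.5 after 96 h. Its change was 0.74 ± 0.18 in log2 after 24 h and -1.04 ± 0.18 after 96 h, both called. Col11a2, its partner chain, fell at all 3 times without overlap between them, from 92.8 and 117 to 14.6 and 26.2 (log2 change -2.35 ± 0.33, adjusted p = 1.48e-06). Col8a2, a network-forming chain of the endothelium of the cornea, had 76.6 and 98.6 at 0 h, 131 and 134 after 24 h and 21.4 and 34.2 after 96 h (log2 change -1.65 ± 0.27, adjusted p = 8.72e-06). Col27a1, a fibrillar chain of cartilage, followed the same course, with 106 and 121 at 0 h, 161 and 172 after 48 h and 53.4 and 55.4 after 96 h (log2 change -1.05 ± 0.21, adjusted p = 0.00011). Col26a1 was also called lower at 96 h, but its groups overlapped (155 and 206 at 0 h, 84.5 and 170.2 after 96 h). The limma call was lost without 0 h library 1 or 96 h library 1. It was also lost without the filter on low values (adjusted p = 0.293), without a trend in the prior (0.184) or with only both groups fitted (0.0544).

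Col1a1, the main fibrillar chain of connective tissue, had 39.6 and 43.8 normalised exon reads at 0 h, 121 and 129.6 after 24 h, 83.0 and 129 after 48 h and 41.8 and 105 after 96 h. It was called higher at 24 h (log2 change 1.57 ± 0.32) and 48 h (1.29 ± 0.32) and not at 96 h (0.66 ± 0.32, adjusted p = 0.0796). Col5a3 showed the same order, with log2 changes of 1.08, 0.94 and -0.10, the last not called. The 9 fibroblast markers summed to 1061 to 1182 normalised reads at 0 h, 2020 to 2044 after 24 h, 2025 to 2052 after 48 h and 1148 to 1155 after 96 h, so they were also highest at 24 and 48 h. Of the listed markers, Postn had 0 reads in every time course group and Lum at 24, 48 and 96 h. Among the 4 measured markers of the list, limma called 3 higher at 24 h, 4 at 48 h and 2 at 96 h. At 96 h 1 was lower. In either direction 50.7%, 63.3% and 65.0% of all genes were called at these times. In the rescue the fibroblast list summed to 448 to 575 without doxycycline and 649 to 762 with 2.5 µg/mL. There 7 of 21 measured collagens were called lower and 3 higher, where 32.0% of all genes were lower and 31.8% higher. The part of the fibroblast list in the collagen levels was not tested.

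Over the time course, 10 of 54 members had both libraries of each time above those of the time before: Col17a1, Col4a1, Col4a2, Itga5, Itgav, Itgb1, Itgb3, Itgb4, Itgb5 and Lamb3. That is 18.5%, against 7.19% of all tested genes. For Col11a2 and Itga7 each time lay below the one before, which is 3.70% of members against 3.54% of genes. Setting 96 h against 24 h directly, 30 of 54 members differed, next to 57.3% of genes.

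When doxycycline was given back after 96 h, most chains that had risen in the separate time course libraries were lower, and Itgb3, Itgav and Itgb4 fell further at the higher dose. At 2.5 µg/mL against none, 20 of 44 measured members were called lower and 6 higher, and 59.1% were called against 63.8% of 13176 genes. Lower calls made up 45.5% of members and 32.0% of genes, and higher calls 13.6% and 31.8%. At 0.1 µg/mL 18 were lower and 3 higher (47.7% called, against 44.1%). Between the doses, 10 were lower at 2.5 µg/mL and 2 higher (27.3%, against 41.0%). All 5 measured beta chains were lower at both doses. The first pair of comparisons share the libraries without doxycycline.

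Itgb3 had 983 and 999 normalised exon reads without doxycycline, 338 and 451 with 0.1 µg/mL and 141 and 154 with 2.5 µg/mL (log2 change -2.74 ± 0.14, adjusted p = 2.1e-15 for the higher dose). Itgav had 8079 and 8186 without it, 4679.6 and 4828 with 0.1 µg/mL and 2408 and 2558 with 2.5 µg/mL (log2 change -1.71 ± 0.0515, adjusted p = 4.03e-20). Itgb4 had 1201 and 1317 without it, 552 and 685 with 0.1 µg/mL and 267 and 339 with 2.5 µg/mL (log2 change -2.06 ± 0.12, adjusted p = 4.04e-14). In each of these 3 genes the groups descended by dose without overlap, and the difference between the doses was itself called (adjusted p = 7.96e-09, 1.1e-13 and 1.42e-07). The endothelium, platelet and blood markers summed to 176 to 199 without the drug and 59.3 to 109 with 2.5 µg/mL, and the mesoderm markers to 697 to 703 and 265 to 267. The trophoblast markers went the other way, with 166 to 226 without the drug and 478 to 493 with 2.5 µg/mL. The part of these lists was not tested. Itgav per kilobase was 0.652 to 0.656 times Itga6 without the drug and 0.221 to 0.236 times at 2.5 µg/mL.

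Itgb1 had 17873 and 18403 normalised exon reads without doxycycline, 14864 and 15334 with 0.1 µg/mL and 14269.6 and 15298 with 2.5 µg/mL. Both doses were below the control (-0.26 ± 0.0445 and -0.30 ± 0.0445 in log2) and overlapped each other. Itga5 had 4367 and 4394 without it, 3035 and 3217 with 0.1 µg/mL and 3113 and 3281 with 2.5 µg/mL, lower at both doses by a similar amount (-0.49 ± 0.0551 and -0.45 ± 0.0551; between doses 0.03 ± 0.0551, adjusted p = 0.674). Itga6 had 10578 and 10648 without the drug and 9264 and 9308 with 2.5 µg/mL (log2 change -0.19 ± 0.0464, adjusted p = 0.00073). Itga3 was the reverse, with 2887 and 3084 without the drug and 3523 and 3853 with 2.5 µg/mL (log2 change 0.30 ± 0.0591, adjusted p = 6.47e-05).

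Lama5 had 17901 and 18399 normalised exon reads without doxycycline, 14299 and 14626 with 0.1 µg/mL and 10399 and 11241 with 2.5 µg/mL (log2 change -0.75 ± 0.0452, adjusted p = 7.07e-14). Lama1 had 5149.9 and 5195 without it, 5478 and 5647 with 0.1 µg/mL and 6085 and 6149 with 2.5 µg/mL, so it rose as Lama5 fell (log2 change 0.24 ± 0.0481, adjusted p = 8.62e-05). Lamc1 had 42812 and 43138 without it, 34558 and 34743 with 0.1 µg/mL and 28686 and 29403 with 2.5 µg/mL (log2 change -0.57 ± 0.0404, adjusted p = 2.18e-12). In these 3 genes the groups were ordered by dose without overlap. Lamb1 had 5457 and 5595 without the drug and 5759.6 and 5905 with 2.5 µg/mL and was not called (log2 change 0.08 ± 0.0493, adjusted p = 0.171). Lamb3 dropped from 107 and 123 to 41.8 and 50.6 (log2 change -1.30 ± 0.30, adjusted p = 0.000563), and Lamb2 from 3104 and 3362 to 1645 and 1803 (log2 change -0.91 ± 0.0669, adjusted p = 4.26e-12).

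Both collagen IV chains were lower at both doses than without the drug. Col4a1 had 1556 and 1589 normalised exon reads without doxycycline, 1014 and 1080.5 with 0.1 µg/mL and 955 and 978 with 2.5 µg/mL (log2 change -0.70 ± 0.0777, adjusted p = 1.06e-08). Col4a2 had 1035 and 1074 without it, 611 and 672 with 0.1 µg/mL and 452 and 482 with 2.5 µg/mL (log2 change -1.17 ± 0.0996, adjusted p = 6.84e-11). Between the doses Col4a2 was called (-0.46 ± 0.0996) and Col4a1 was not (-0.11 ± 0.0777, adjusted p = 0.253). Col17a1 fell by 1.13 in log2 with 2.5 µg/mL and Col18a1 by 0.31.

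Besides Itga3 and Lama1, the members higher at 2.5 µg/mL were Col26a1 and 3 less firm ones. Col26a1 had 42.3 and 71.1 without the drug and 129 and 144 with 2.5 µg/mL (log2 change 1.29 ± 0.27, adjusted p = 0.000187). Col11a1 had 30.2 and 71.9 without the drug and 98.8 and 103 with 2.5 µg/mL (log2 change 1.10 ± 0.32, adjusted p = 0.00415), and without library 2 of the control its adjusted p was 0.193. Itga8 had 41.0 and 59.1 without the drug and 90.9 and 106 with 2.5 µg/mL (log2 change 0.98 ± 0.29, adjusted p = 0.0049), and without the same library its adjusted p was 0.074. Col27a1 had 25.9 and 30.5 without the drug and 45.1 and 68.0 with 2.5 µg/mL (log2 change 0.95 ± 0.40, adjusted p = 0.0399), and it lost its call without control library 1 (adjusted p = 0.070), control library 2 (0.149) or library 2 of the 2.5 µg/mL group (0.263). These 4, unlike Itga3 and Lama1, have at most 144 normalised reads in any of these libraries.

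Of the 19 members higher at 96 h and measured in both series, 18 were called lower at 2.5 µg/mL (94.7%, against 73.9% of all genes called higher at 96 h). These 18 make up 90% of the 20 members lower at 2.5 µg/mL. The exception was Lama4, with 47.4 and 65.0 normalised exon reads without doxycycline and 39.2 and 45.9 with 2.5 µg/mL (log2 change -0.38 ± 0.37, adjusted p = 0.384). Of the 12 members lower at 96 h, 5 were called higher (41.7%, against 73.2% of all genes called lower at 96 h) and 7 were not called. The 5 were Col11a1, Col26a1, Col27a1, Itga3 and Lama1. Among the 7 were Itga1, with 45.3 and 56.0 reads without the drug and 51.0 and 62.5 with 2.5 µg/mL, and Itga2b, with 16.2 and 25.6 and 16.6 and 23.5. By dose, 12 of 44 members had lower libraries at each step without overlap (27.3%, against 19.4% of genes) and 3 had higher ones (6.82%, against 19.4%), namely Col26a1, Itga8 and Lama1.

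Intron reads, which come largely from unspliced RNA, were compared with exon reads of the same genes. Introns changed alongside exons in Itgb4 and Col4a2, but lagged behind or went the other way in Itgav, Itgb1, Itga5 and Lamc1. At 96 h, 9 of 40 measured members were higher in introns and 11 lower (50% called, against 44.6% of 12225 genes). The difference of the exon and the intron change was called in 4 of 39 members (10.3%, against 9.08% of 11939 genes), all with exons ahead: Itgav, Itgb1, Itga5 and Lamc1. With any 1 of the 0 h or 96 h libraries left out, or with only those groups fitted, no member was called. Unadjusted, 13 of the 39 members had a p below 0.05, 11 of them with exons ahead, where 28.6% of all genes had such a p.

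Itgav introns had 189.8 and 215 normalised reads at 0 h, 197 and 225 after 24 h, 237 and 259 after 48 h and 315 and 342 after 96 h. At 24 h, when its exon reads were 1.75-fold higher, the intron change was 0.06 ± 0.14 in log2 (adjusted p = 0.777). By 96 h it was 0.70 ± 0.14, and exons exceeded introns by 1.05 ± 0.13 (adjusted p = 0.0153). The excess was also called at 24 h (0.76 ± 0.13) and 48 h (1.14 ± 0.13), where the called shares of all genes were 4.12% and 9.33%. Itgav is the member with both miR-92 matches printed above.

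Itgb1 introns fell while its exons rose, with 727 and 895 normalised intron reads at 0 h and 529 and 579 after 96 h (log2 change -0.54 ± 0.10, adjusted p = 6.46e-05). Exons exceeded introns by 0.85 ± 0.15 in log2 (adjusted p = 0.0274). Lamc1 introns had 1113 and 1144 at 0 h, 777 and 790.4 after 24 h and 965 and 1031 after 96 h, and its exons exceeded introns by 0.52 ± 0.11 (adjusted p = 0.0436). Itga5 introns had 219 and 244 at 0 h and 251 and 270.0 after 96 h, with an excess of exons of 0.60 ± 0.10 (adjusted p = 0.0261).

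Itgb4 introns rose with its exons, from 42.5 and 51.0 normalised reads at 0 h to 161 and 212 after 96 h (log2 change 1.97 ± 0.23, adjusted p = 1.88e-08), and the difference of -0.06 ± 0.22 was not called (adjusted p = 0.886). Col4a2 introns went from 42.3 and 50.8 to 213 and 223 (log2 change 2.21 ± 0.23, adjusted p = 3.38e-09). Itgb3 introns were sparse, with 12.4 and 14.4 at 0 h and 42.9 and 57.2 after 96 h (log2 change 1.81 ± 0.42, adjusted p = 0.000744), and its excess of exons of 0.99 ± 0.37 was not called (adjusted p = 0.147). Lama1 introns fell from 1141 and 1188 to 682 and 696 (log2 change -0.76 ± 0.0820, adjusted p = 6.18e-09), and Itga9 introns had already fallen at 24 h, from 356 and 381 to 148 and 186 (log2 change -1.14 ± 0.16, where 37.2% of genes were called in introns) while its exons moved by -0.22.

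**Figure D4:**
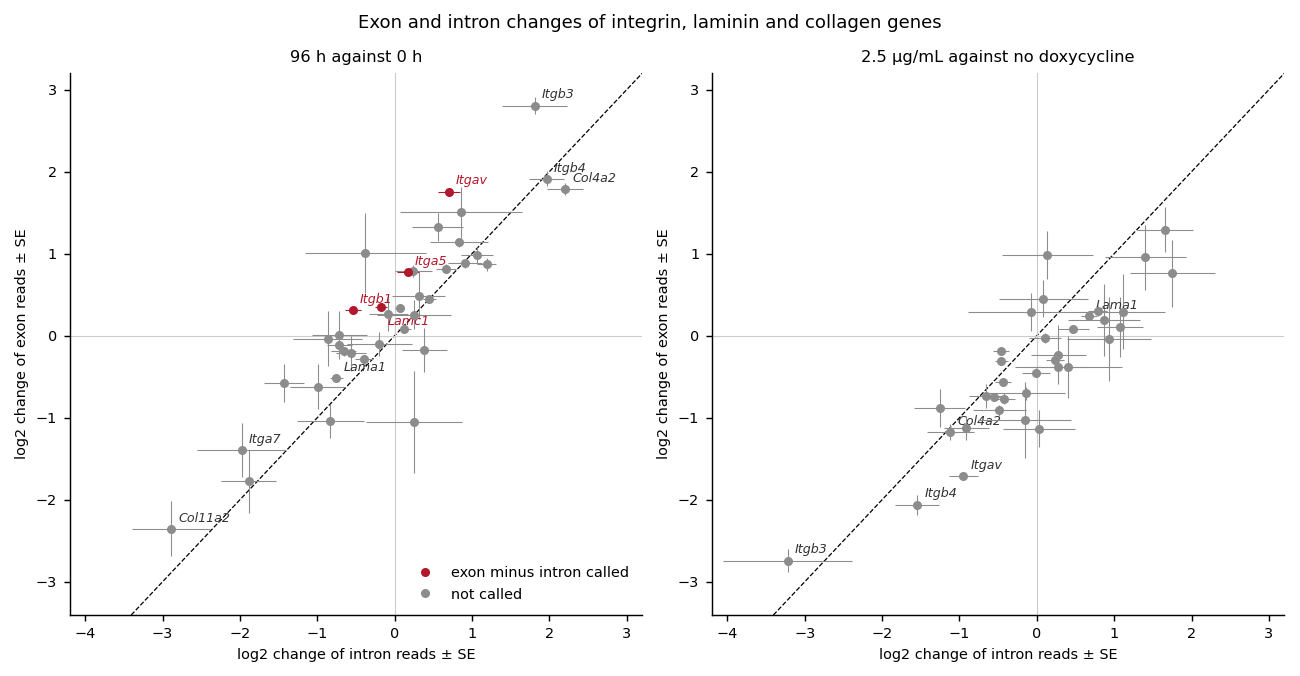
Log2 changes of intron reads (x axis) against those of exon reads (y axis), each with its standard error, for reported members measured in both; the dashed line marks equal change. The left panel is 96 h against 0 h and the right panel 2.5 µg/mL against none; red marks the 4 members whose exon and intron changes were called different (Itgav, Itgb1, Itga5 and Lamc1, all above the line), and no member was called in the right panel under the fit as described.

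With 2.5 µg/mL given back, 12 of 36 measured members were lower in introns and 6 higher (50% called, against 46.4% of 11580 genes). Without the filter on low values 11 were called in all. No member's exon and intron changes were called different by limma (0 of 36, against 11.3% of 11295 genes; smallest adjusted p = 0.0681). Unadjusted, 8 had a p below 0.05, all with exons lower than introns, where 32% of all genes had such a p. When the filter was raised to 50 normalised reads 3 members were called, and with the other match of the libraries without doxycycline 1 was. Itgav introns went from 204 and 317 normalised reads without the drug to 123 and 139.9 (log2 change -0.95 ± 0.19, adjusted p = 0.000198), and Itgb4 introns from 120.2 and 128 to 41.7 and 42.1 (log2 change -1.55 ± 0.28, adjusted p = 7.05e-05). Lama1 introns rose, from 424 and 428 to 663 and 696 (log2 change 0.67 ± 0.10, adjusted p = 8.33e-06). Itgb1 introns had 449 and 478 without the drug and 497 and 597 with 2.5 µg/mL and were not called (log2 change 0.23 ± 0.12, adjusted p = 0.118).

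Set beside the seed matches, the 9 members with the miR-92 letters had a median exon change of 0.66 in log2 after 96 h, and the 43 with a 3′ UTR but without them 0.20. At 2.5 µg/mL, over those of these members that were measured there, the medians lay close together, at -0.19 and -0.23. For the miR-294 letters the medians were 1.56 in 4 members and 0.14 in 48 after 96 h, and -1.17 and -0.19 with 2.5 µg/mL. For the miR-17 letters they were 0.35 in 5 and 0.20 in 47 after 96 h, and -0.85 and -0.20 with 2.5 µg/mL. For the miR-29 letters they were 0.23 in 20 and 0.17 in 32 after 96 h, and -0.08 and -0.31 with 2.5 µg/mL. Over all genes the 96 h medians with and without the letters were 0.11 and -0.01 for miR-92, and 0.15 and -0.03 for miR-294. They were 0.15 and -0.03 for miR-17, and 0.03 and -0.01 for miR-29. With 2.5 µg/mL the all-gene medians were -0.17 and 0.015 for miR-92, and -0.21 and 0.04 for miR-294. For miR-17 they were -0.23 and 0.03, and for miR-29 -0.04 and 0.01. Members with the miR-92 letters had longer 3′ UTRs (median 1891 bases, against 785 without). The same held for the letters of miR-294 (2151 against 886), miR-17 (1287 against 789) and miR-29 (1400.5 against 641.5). UTR length was not separated from the matches. Itga6 and Itga8 hold the miR-92 letters and were not called higher, and Col11a1 and Col27a1 hold them and were lower at 96 h. Itgb4, Itgb5 and Lamb2 held none of the 4 motifs and rose.

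In the genetic series the libraries of a group differed more among themselves, with a median standard error of 0.336 to 0.368 in log2 against 0.0797 in the time course. The deepest wild type library had 46.5 M exon reads and the other 13.5 M. The clones labelled as lacking all 4 Argonautes had more Itgb3, Itgav, Itgb4, Itgb5, Lamb2, Lamc1 and Col5a1 than wild type. Against wild type, 12 of 46 measured members were higher and 4 lower (34.8% called, against 18.6% of 13142 genes, of which 10.9% were higher and 7.72% lower). Without wild type library 1 the count was 8, without wild type library 2 it was 5, and without the filter on low values it was 7. Against E7, the line with the hAgo2fl transgene, only Col4a1 was called (2.17%, against 1.51% of genes). There 15 of 46 had an unadjusted p below 0.05, and so had 20.2% of all genes. Without library 1 of the clones 8 members were called there, without clone library 2 it was 2, without E7 library 3 it was 3 and without E7 library 1 or 2 it was 0. E7 against wild type gave 3 higher and 2 lower (10.9%, against 4.56%), and leaving out any 1 library left 0 to 3 in all.

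Itgb3 had 102 and 152 normalised exon reads in wild type, 42.2 and 155 in B9, 196, 233 and 567 in E7 and 1306 and 2016 in the clones. Both clones exceeded every other library (clones against wild type, log2 change 3.70 ± 0.63, adjusted p = 0.00367), and the difference from E7 was not called (2.45 ± 0.58, adjusted p = 0.0639). Itgav had 1153 and 1375 in wild type, 801 and 1817 in B9, 1751, 2649 and 4982 in E7 and 4292 and 6875 in the clones. It was higher in the clones than in wild type (log2 change 2.11 ± 0.48, adjusted p = 0.0136), but the highest E7 library lay above the lower clone. The endothelium, platelet and blood markers summed to 88.8 to 92.7 in wild type and 289 to 357 in the clones, the mesoderm markers to 244 to 317 and 404 to 763, and the trophoblast markers to 377 to 592 and 179 to 256. The part of these lists was not tested. Itgav per kilobase was 0.169 to 0.171 times Itga6 in wild type and 0.717 to 0.763 times in the clones.

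Itgb4 had 248 and 382 normalised exon reads in wild type and 839.6 and 1355 in the clones (log2 change 1.79 ± 0.39, adjusted p = 0.0107), and Itgb5 had 647 and 972 in wild type and 1948 and 3005 in the clones (log2 change 1.61 ± 0.34, adjusted p = 0.01). Itga9 had 318 and 467 in wild type and 1124 and 1501 in the clones (log2 change 1.75 ± 0.42, adjusted p = 0.0164). Per kilobase it was 44.87 to 65.84 in wild type, 78.05 to 128.7 in B9, 89.56 to 210.4 in E7 and 158.6 to 211.6 in the clones. All mutant lines thus lay above wild type, and E7 overlapped the clones. Itgb1 had 7306 and 8261 in wild type, 6123, 7535 and 8863 in E7 and 9281 and 13040.4 in the clones, and no comparison of it was called (clones against wild type 0.50 ± 0.26, adjusted p = 0.188). Itga5 and Itga6 were not called either, with log2 changes of -0.09 ± 0.23 and -0.01 ± 0.29 in the clones against wild type. Itga5 had 2192 and 2216 reads in wild type and 1914 and 2245 in the clones, and Itga6 had 5833 and 6865 in wild type and 5109 and 7688 in the clones.

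Among laminins, Lamc1 had 13314 and 14981 normalised exon reads in wild type, 15326 and 15559.9 in B9, 23466, 24355 and 26102 in E7 and 34095 and 37046 in the clones. Both E7 and the clones were called higher than wild type (log2 changes 0.80 ± 0.19 and 1.33 ± 0.21). Lamb2 had 614 and 733 in wild type, 1331, 1587 and 1786 in E7 and 1987 and 3882 in the clones (clones against wild type, log2 change 2.05 ± 0.32, adjusted p = 0.00242). In none of Lamc1, Lamb2 and Lamb3 did the clones overlap wild type. Lamb3 had 46.4 and 96.2 in wild type and 241 and 359 in the clones (log2 change 2.12 ± 0.53, adjusted p = 0.0204). Lama1 had 1829.6 and 2244 in wild type, 3458, 5228 and 5885 in E7 and 3468 and 3701 in the clones, and was called only in E7 against wild type (log2 change 1.23 ± 0.25, adjusted p = 0.0226). Per kilobase it was also higher in B9 (459.8 to 492.3) than in wild type (192.2 to 235.8), without overlap. All mutant lines thus lay above wild type. Lama5 had 10224 and 10729.9 in wild type and 13991 and 28476 in the clones and was not called (log2 change 0.93 ± 0.32, adjusted p = 0.0654). Unlike in the time course, Lama5 per kilobase relative to Lama1 overlapped between the clones and wild type. It was 3.81 to 4.9 times Lama1 in wild type, 1.72 to 4.32 times in E7 and 3.16 to 6.86 times in the clones.

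Lamb1 had 4815 and 4827 normalised exon reads in wild type, 5968, 6573 and 8166 in E7 and 1575 and 4249.8 in the clones, not called against either (log2 changes -0.90 ± 0.38 and -1.40 ± 0.34). Its introns were lower in the clones than in every other group, with 178 and 188 normalised reads in wild type, 163 and 168 in B9, 115, 124 and 177 in E7 and 19.6 and 30.4 in the clones. This was called against E7 (log2 change -2.43 ± 0.37, adjusted p = 0.0225) and wild type (log2 change -2.86 ± 0.41, adjusted p = 0.00292), where 0.131% and 4.01% of 11463 genes were called. Lamb2 per kilobase was 0.131 to 0.156 times Lamb1 in wild type, 0.208 to 0.273 times in E7 and 0.938 to 1.30 times in the clones.

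Col4a1 had 1490.5 and 1493 normalised exon reads in wild type, 1581 and 2368 in B9, 1173, 1420.3 and 1582 in E7 and 2692 and 4465 in the clones. Both clones lay above all other libraries (against E7, log2 change 1.33 ± 0.28, adjusted p = 0.0444), but the call against E7 was lost without E7 library 1 (adjusted p = 0.117), 2 (0.169) or 3 (0.0508). Col4a2 had 758 and 845 in wild type, 415, 524 and 971 in E7 and 1639 and 2472 in the clones, and was not called (log2 change 1.33 ± 0.43, adjusted p = 0.054 against wild type). Col4a2 per kilobase was 0.522 to 0.581 times Col4a1 in wild type and 0.568 to 0.625 times in the clones, so these ranges overlapped. Col5a1 was higher in the clones, with 233 and 367 in wild type and 1116 and 1160.3 in the clones (log2 change 1.96 ± 0.36, adjusted p = 0.00542), as was Col17a1 (24.0 and 32.9 in wild type, 113 and 156 in the clones, 4.60-fold on the log2(value + 1) scale, adjusted p = 0.0296).

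Lower in the clones than in wild type were the collagens Col1a1, Col6a2, Col6a5 and Col8a2. Col1a1 had 181 and 383 normalised exon reads in wild type, 30.7 and 46.1 in B9, 38.4, 46.0 and 60.1 in E7 and 18.7 and 28.5 in the clones (log2 change -3.46 ± 0.57, adjusted p = 0.00309). The 3 mutant lines were thus below wild type, E7 by 2.45 in log2 (called) and B9 by 2.78 (adjusted p = 0.0939, not called). Col6a5, a chain of the microfibrillar collagen VI, had 114 and 211 in wild type and 17.4 and 37.3 in the clones (log2 change -2.56 ± 0.72, adjusted p = 0.0316). Itga4 was called lower in E7 than in wild type, with 24.6 and 29.6 in wild type and 0, 0 and 4.05 in E7, where the fitted change depends on the pseudocount (log2 change -4.03 ± 1.01, adjusted p = 0.0475). B9 against wild type gave 0 of 46 members by limma (0.0685% of genes), with a smallest adjusted p of 0.0939. An unadjusted p below 0.05 was found in 5 members and in 7.34% of all genes.

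**Figure D5:**
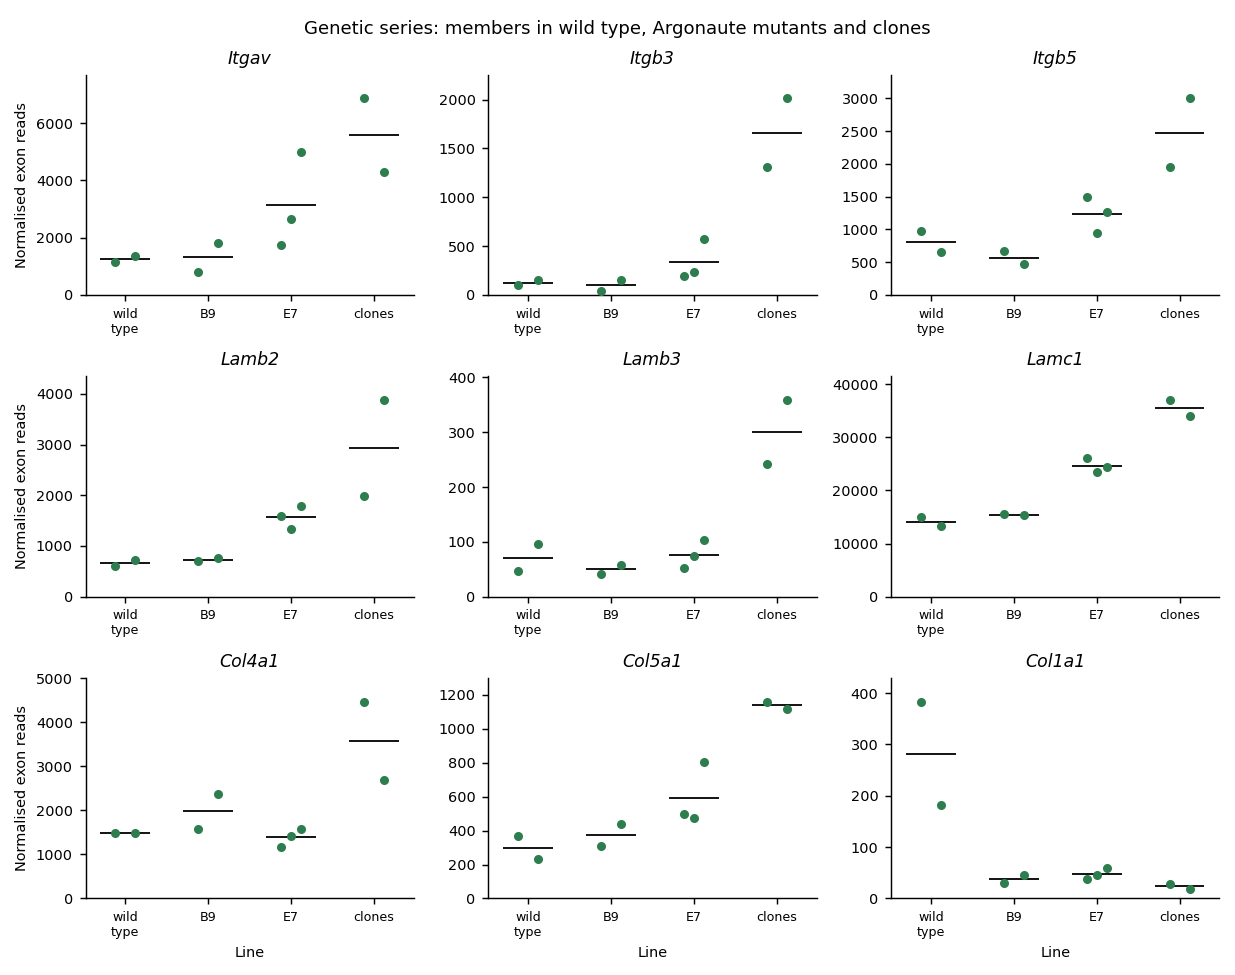
Normalised exon reads (y axis, linear, from 0) of 9 members in each library (points) of the 4 lines of the genetic series (x axis), with lines at group means. Both clones lie above all other libraries for Itgb3, Itgb5, Lamb2, Lamb3, Lamc1, Col4a1 and Col5a1, the E7 and clone libraries overlap for Itgav, and wild type is highest for Col1a1.

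Genes that work with these chains moved in part. Of 21 measured genes that process collagens and laminins, 13 rose and 1 fell at 96 h, and 5 rose and 11 fell at 2.5 µg/mL, where 65.0% and 63.8% of all genes were called. Loxl4, a lysyl oxidase that cross-links collagen, changed by 3.15 in log2 after 96 h and -3.09 with 2.5 µg/mL, Adamts14, a procollagen peptidase, by 1.74 and -1.51, and the collagen chaperone Serpinh1 by 0.61 and -0.20. Loxl1 was the gene that fell at 96 h (-1.37, then 0.88 with 2.5 µg/mL). The medians of the list were 0.30 and -0.20, beside -0.008 and 0.001 over all genes tested.

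Of 21 other matrix ligands and receptors, 17 rose and 3 fell at 96 h, and 1 rose and 14 fell at 2.5 µg/mL. Of all genes, 32.4% rose and 32.5% fell at 96 h, and 31.8% rose and 32.0% fell at 2.5 µg/mL. The medians of the list were 0.46 and -0.40. Thbs1, thrombospondin, an adhesive ligand, changed by 1.99 in log2 after 96 h and -2.45 with 2.5 µg/mL. Nid1, which links laminin to collagen IV, changed by 1.51 and -1.17, and Fn1, the ligand of Itga5 with Itgb1, by 0.48 and -0.40. Fbn2, a microfibril protein, went the other way (-1.25 and 0.90). In the clones against wild type 7 of 21 were higher and 1 lower, where 18.6% of genes were called.

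Of 23 focal adhesion genes, which tie integrin tails to actin, 9 rose and 7 fell at 96 h, and 7 rose and 10 fell at 2.5 µg/mL. These counts lie near the 65.0% and 63.8% of all genes called, and the medians of the list were 0.05 and 0.03. Parva, an adaptor of integrin-linked kinase, changed by 2.54 in log2 after 96 h and -2.48 with 2.5 µg/mL, and Tns1, tensin, by 1.52 and -1.21. Zyx, zyxin, changed by -0.89 and 0.93, and Flna, an actin cross-linker, by -0.61 and 0.42. Among 3 measured leukocyte integrin chains outside the rule, Itgal was higher (0.54) and Itgam lower (-2.15) at 96 h.

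The remaining marker lists were summed in the same way. The 11 endoderm markers had 551 to 569 normalised reads at 0 h and 573 to 583 after 96 h, beside 1082 to 1268 in wild type and 368 to 566 in the clones. The 6 trophoblast markers summed to 422 to 493 at 0 h and 195 to 199 after 96 h, and the 5 neural markers to 9952 to 10722 and 10963 to 11101.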

How the data were processed

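Normalised reads of exons and introns came from 6 tables, 1 exon and 1 intron table per series. In each column the deposited signal is what the authors averaged over a group: reads of a gene after scaling of the libraries. Per the submitters' processing notes, the tools were TopHat2 2.0.12 and DESeq, with mm10 as build; the sources used here do not give the counter, the annotation or a version of DESeq. The libraries behind each mean were solved for, as whole reads times a step of their own. Of 405064 values, 404962 (99.975%) had a single solution, and the misfit was at most 5.19e-15 of a value. The 102 others, all in E7 and none a member, hold 17.7% of the E7 exon mean and stayed out of its tests. In simulated columns like the 96 h and E7 exon columns, all values were recovered. The E7 values left unsolved in the data entered that simulation without reads, so it could not test them.

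limma 3.58.1 (R 4.3.3; prior with a trend) was fitted to log2(normalised reads + 1) over all groups of a series, for genes with a mean of at least 10, with Benjamini-Hochberg adjustment over all genes tested and calls at an adjusted p below 0.05. Fold changes are on that scale, which understates low genes. The exon minus intron difference was centred per library. Exon and intron libraries were matched by the correlation of their deviations from the group mean, at most 0.161 in size, so that match is weak. Simulations changed 200 genes each, fewer than were called in the same comparisons of the data. In them, 93.5% of 2-fold changes were called at 96 h against 0 h and 93.0% at 2.5 µg/mL against none, but 4.00% in the clones against wild type. The members and gene lists were chosen with earlier results of these data known. Values of each library are printed for the 4 largest called rises and falls at 96 h, at 2.5 µg/mL and in the clones against E7, and for Itgb1, Itgav, Itga5, Itga6, the laminin-111 and laminin-511 chains, collagen IV and Col1a1; other measured members may be named. A member is not reported here by name but is included in counts. Alternatives were the pseudocount, the filter, the prior, size factors, the groups fitted and leaving out each library.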

Additional observations from a re-analysis of the deposited data

Results flagged for a closer look

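Col11a1 and Lamb1 were each called in opposite directions at 24 h and at 96 h, and the difference between those times was itself called by limma (adjusted p over all 13652 genes). They were picked for those opposite calls on the same libraries, so the called difference adds no separate support. Between 96 h and 24 h, 57.3% of all genes were called. The share of all genes with opposite calls was not counted. The log2 difference of 96 h minus 24 h was -1.77 ± 0.18 for Col11a1 (adjusted p = 2.13e-08), whose libraries were 224 and 269 normalised exon reads at 24 h and 68.0 and 74.5 at 96 h. For Lamb1 it was -0.34 ± 0.0440 (adjusted p = 5.59e-07), with 9792 and 10446 at 24 h and 7893 and 8047 at 96 h, although its change from 0 h to 96 h alone is small. In both genes the libraries of 24 h and 96 h did not overlap.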

How the results depend on the processing

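The pseudocount, the filter on low values, the prior, refitted size factors (0.987 to 1.025 times the recovered ones), the groups fitted and each library were varied. No member count or named member reversed. Of the counts of called members, 104 stayed within 1.5 times and 26 moved; over 59 pairs of a called member and a comparison (at 96 h, at 2.5 µg/mL and in the clones against E7), the call held in 505 refits and was lost in 27. The cause of each move was not tested.

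In the clones against E7 (1 called), a pseudocount of 5 gave 3, no filter 0, only both groups 0, and leaving out a library 0 to 8. In the clones against wild type (16), no filter gave 7 and leaving out a library 5 to 13. In E7 against wild type (5), no filter gave 1, a prior without trend 2 and leaving out a library 0 to 3. Introns at 2.5 µg/mL (18) gave 11 with no filter. The exon minus intron difference at 96 h (4) gave 0 with only both groups fitted and 0 with any 1 library left out. At 2.5 µg/mL (0), a mean of at least 50 gave 3 and the other match of libraries without doxycycline gave 1. Among those 59 pairs, the calls lost under at least 1 alternative were of Col26a1 and Lamb1 at 96 h, Col11a1, Col27a1, Col9a2 and Itga8 at 2.5 µg/mL, and Col4a1 in the clones against E7 (adjusted p 0.0508 to 0.169).

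No paired analysis was possible because the deposited columns are group means that carry no replicate number. Precision was lowest in the genetic series, with a median standard error of 0.368 in log2 for the clones against wild type, so a missing call there says little. The simulation called 4.00% of 2-fold changes there. It changed 200 genes, whereas 2446 were called in the data, so that share cannot be carried over to these data.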
